A study of Mus musculus with 24 samples.

Results

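The 6 transcripts described here, *Afp*, *Ly6d*, *Gpc3*, *Igf2*, *Igf2bp3* and *H19*, are known from the fetal liver or from liver tumours. They were taken by symbol from a joined table of 24532 genes, and were named because of how they stood in the livers of liver-specific *Crif1* knockout (LKO) mice against control (Ctrl) mice. Their liver values are therefore a description without a test. Bulk RNA-seq was made from liver, inguinal white adipose tissue (iWAT), gastrocnemius muscle (GM) and hypothalamus of C57BL/6 mice aged 8 weeks and fed chow, with 3 Ctrl and 3 LKO libraries per tissue and 24 in all. Ctrl mice carried the floxed *Crif1* allele alone (Crif1flox/flox), and LKO mice carried the same allele with Cre recombinase under the albumin promoter (Alb-Cre;Crif1flox/flox). That promoter is active in hepatocytes and in their fetal precursors, from which bile duct cells also arise, and not in the other 3 tissues. The labels name no individual mice, so p-values measure the spread between these libraries, and the tissues of a genotype could not be matched by animal.

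The fetal liver makes plasma proteins, growth factors and blood cells, and many of its transcripts are shut off after birth. Alpha-fetoprotein, encoded by *Afp*, is the fetal counterpart of albumin and is used in the clinic as a marker of hepatocellular carcinoma. *Igf2* and *H19* lie side by side in an imprinted domain, in which *Igf2* is expressed from the paternal and *H19* from the maternal chromosome. IGF2 is a growth factor of the fetus, and *H19* is a long noncoding RNA that carries the microRNA miR-675. Glypican-3 (*Gpc3*) is a cell surface heparan sulfate proteoglycan, IGF2BP3 is an RNA-binding protein that binds *Igf2* and other mRNAs, and LY6D is a small surface protein of the Ly6 family found on B cell progenitors and stratified epithelia. Apart from *Ly6d*, which is better known as a lineage and tumour marker than as a fetal one, each member is a textbook oncofetal transcript.

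Reads from most of these genes in Ctrl liver were few, and it matters where each gene lies. On the mm10 genome *Afp* is on the plus strand of chromosome 5 (90490714 to 90508907), downstream of *Alb* and upstream of *Afm*. *H19* (chromosome 7, 142575530 to 142578146) and *Igf2* (chromosome 7, 142650768 to 142666816) are both on the minus strand. *Gpc3* is on the minus strand of chromosome X (52272427 to 52613974), *Ly6d* on that of chromosome 15 (74762056 to 74763567) and *Igf2bp3* on that of chromosome 6 (49085218 to 49214954). In the GENCODE M21 annotation the last exons of *Igf2bp3* share 1529 exonic bases with *Malsu1* on the opposite strand, and *Igf2* shares 98 exonic bases with the antisense gene *Igf2os* and 3596 with *Gm49394*, a gene model on its own strand that was not analysed here. *H19* shares 71 and 70 exonic bases with the RNA genes *Gm27483* and *Gm27786* on the opposite strand and 84 with *Mir675* on its own strand. The library kit does not mark strand, so reads from such shared bases cannot be assigned to one gene.

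RefSeq promoters, defined as 250 bases before to 50 bases after an annotated start, were at hand for 4 of the 6 genes, with 4 start sites for *Igf2*. Those of *Afp*, *Igf2bp3* and *Gpc3* (build GRCm38.p6) are printed to show how different the control regions of these transcripts are. The motifs searched on both strands were TATAAA (the box of many tightly regulated promoters), GTTANNNNNTAAC (an element of the type bound by HNF1 factors, with 5 free bases), CCAAT (an element bound by NF-Y), CACGTG (E-box) and TGATGNAA (an element of the type bound by C/EBP and ATF factors). Capitals mark TATAAA and the HNF1-type element in *Afp*, CCAAT and CACGTG in *Igf2bp3*, and CCAAT in *Gpc3*.
Afp promoter (chr5:90490464-90490763, plus strand): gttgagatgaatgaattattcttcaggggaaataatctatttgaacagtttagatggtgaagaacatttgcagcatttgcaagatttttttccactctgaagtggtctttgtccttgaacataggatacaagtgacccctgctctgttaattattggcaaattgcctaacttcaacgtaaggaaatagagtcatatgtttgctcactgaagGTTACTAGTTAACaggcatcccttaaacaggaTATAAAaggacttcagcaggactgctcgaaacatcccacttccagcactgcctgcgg
Igf2bp3 promoter (chr6:49214905-49215204, minus strand): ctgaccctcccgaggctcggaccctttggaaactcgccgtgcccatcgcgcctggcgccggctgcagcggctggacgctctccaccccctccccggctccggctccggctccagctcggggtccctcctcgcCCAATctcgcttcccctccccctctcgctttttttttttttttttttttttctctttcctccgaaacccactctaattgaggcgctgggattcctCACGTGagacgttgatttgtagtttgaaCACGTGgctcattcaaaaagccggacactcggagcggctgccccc
Gpc3 promoter (chrX:52613925-52614224, minus strand): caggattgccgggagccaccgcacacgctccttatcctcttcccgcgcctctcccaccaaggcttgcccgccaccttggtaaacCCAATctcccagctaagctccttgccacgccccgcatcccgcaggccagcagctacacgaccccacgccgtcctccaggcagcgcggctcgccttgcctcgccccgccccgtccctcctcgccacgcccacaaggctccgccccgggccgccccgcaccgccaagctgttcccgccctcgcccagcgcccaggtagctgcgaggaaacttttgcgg

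The *Afp* window held TATAAA 7 bases before the RefSeq start, which is 30 bases before the GENCODE start, and the HNF1-type letters GTTACTAGTTAAC 39 bases before the RefSeq start. TATAAA stood in 13.6% of 32851 mouse promoters of this length and the HNF1-type element in 0.332%. The *Igf2bp3* window held CACGTG 23 bases before and again 5 bases after its annotated start at 49214954, a motif found in 7.15% of promoters. The RefSeq span of this gene reaches further upstream, to 49215469. CCAAT, found in 37.4% of promoters, was present in the windows of *Afp*, *Igf2bp3*, *Gpc3* and the fourth *Igf2* start, and TGATGNAA, found in 3.97%, was in none of the 7 windows of these genes. The *Afp* window held 3 CG dinucleotides, against 30 for *Gpc3*, 25 for *Igf2bp3* and a median of 7 over all promoters. The 4 *Igf2* starts held 2, 14, 24 and 7. These matches describe letters only.

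In liver, deletion of *Crif1* was visible in its own transcript, listed as *Gadd45gip1*, at 14.6, 12.5 and 13.6 FPKM (fragments per kilobase, corrected for library size) in the Ctrl libraries and 5.40, 2.002 and 2.51 FPKM in LKO libraries 1, 2 and 3. All 6 transcripts were higher in each LKO liver than in each Ctrl liver, and the ratios of the group means ran from 1.68 for *Gpc3* to 187 for *Ly6d*. The same non-overlap upwards was seen for 44.0% of the 17883 genes above 0 in any liver library, and the members were chosen on this contrast, so nothing is read from the count. *Ly6d*, *H19* and *Igf2bp3* stood far above the Ctrl range, whereas *Afp* did not exceed 2.30 FPKM and *Igf2* and *Gpc3* stayed under 1 FPKM in every library. A level under 1 FPKM in every library of a group is called low here, and by that measure all 6 transcripts were low in Ctrl liver.

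*Afp* was at 0.925, 0.573 and 0.735 FPKM in the Ctrl livers and at 0.985, 1.75 and 2.30 FPKM in LKO livers 1, 2 and 3. LKO library 1 was only 1.06 times the highest Ctrl library, so the groups were separated by a narrow gap. The ratio of the group means was 2.26, and the difference on the log2(FPKM + 1) scale was 0.59 ± 0.23 (SE, n = 3 per group). On that scale differences of low genes are understated, and the SE of each member is the ordinary one because 4 of the 6 did not reach the filter of 1 FPKM in at least 3 of 6 libraries. With these levels *Afp* remained a trace transcript beside *Alb*, the adult plasma protein gene next to it, which was listed at 39763 to 42770 FPKM in Ctrl and 33127 to 53194 FPKM in LKO livers.

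*Ly6d* differed most. The Ctrl livers were at 0.996, 0.469 and 0.216 FPKM and the LKO livers at 52.2, 120 and 143 FPKM. Even the lowest LKO library was 52.5 times the highest Ctrl library. The means of 0.56 ± 0.40 and 105 ± 47.0 FPKM (SD, n = 3) gave a ratio of 187, and the log2 difference was 5.99 ± 0.49 (SE).

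*Gpc3* was at 0.285, 0.263 and 0.331 FPKM in Ctrl and 0.341, 0.711 and 0.421 FPKM in LKO livers. Most of its difference came from LKO library 2, and the lowest LKO library was 1.03 times the highest Ctrl library. The log2 difference of 0.20 ± 0.11 (SE) fell to 0.09 without LKO library 2.

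*Igf2* was barely detected, at 0.0782, 0.0999 and 0.0831 FPKM in Ctrl and 0.141, 0.221 and 0.148 FPKM in LKO livers. Its ratio of means was 1.95 and its log2 difference 0.11 ± 0.03 (SE). The mean read coverage of the *Igf2* transcript was 0.401 to 0.564 in Ctrl and 0.622 to 0.968 in LKO livers, so less than 1 read lay over an average base, and differences of this size rest on few reads. The antisense gene *Igf2os* was listed at 0 in all 6 livers.

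*Igf2bp3*, whose product binds *Igf2* mRNA among others, was at 0.122, 0.127 and 0.1 FPKM in Ctrl livers and 0.556, 1.41 and 2.99 FPKM in LKO livers. The 3 LKO values were spread over 5.38-fold and all lay above Ctrl, the lowest by 4.39-fold. The ratio of means was 14.2 and the log2 difference 1.14 ± 0.39 (SE). *Malsu1*, which shares exonic bases with *Igf2bp3*, was at 13.02 to 15.4 FPKM in Ctrl and 14.5 to 22.4 FPKM in LKO livers, with its highest value in LKO library 3 as well. The part of reads from *Malsu1* in the *Igf2bp3* values was not tested.

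*H19* went from 0.0703, 0.0605 and 0.0804 FPKM in Ctrl to 11.2, 2.37 and 6.11 FPKM in LKO livers. Its lowest LKO library was 29.5 times its highest Ctrl library, the ratio of means was 93.1 and the log2 difference 2.63 ± 0.54 (SE). The neighbouring *Igf2*, which shares the imprinted domain, differed by 1.95-fold at a level below 0.25 FPKM in all livers. The row of the microRNA gene *Mir675* within *H19* was at 0 to 0.0407 FPKM in Ctrl and 0.155 to 0.171 FPKM in LKO livers, but it lies in the same exonic bases as *H19* and these libraries do not measure mature microRNAs. The mature microRNAs carried by the *H19* transcript are printed from RefSeq (GRCm38.p6, chromosome 7, minus strand, 142577112 to 142577133 and 142577078 to 142577099), with the seed (bases 2 to 8) in capitals, to show that both arms differ in their seeds.
mmu-miR-675-5p: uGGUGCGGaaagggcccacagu
mmu-miR-675-3p: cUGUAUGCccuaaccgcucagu

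**Figure D1:**
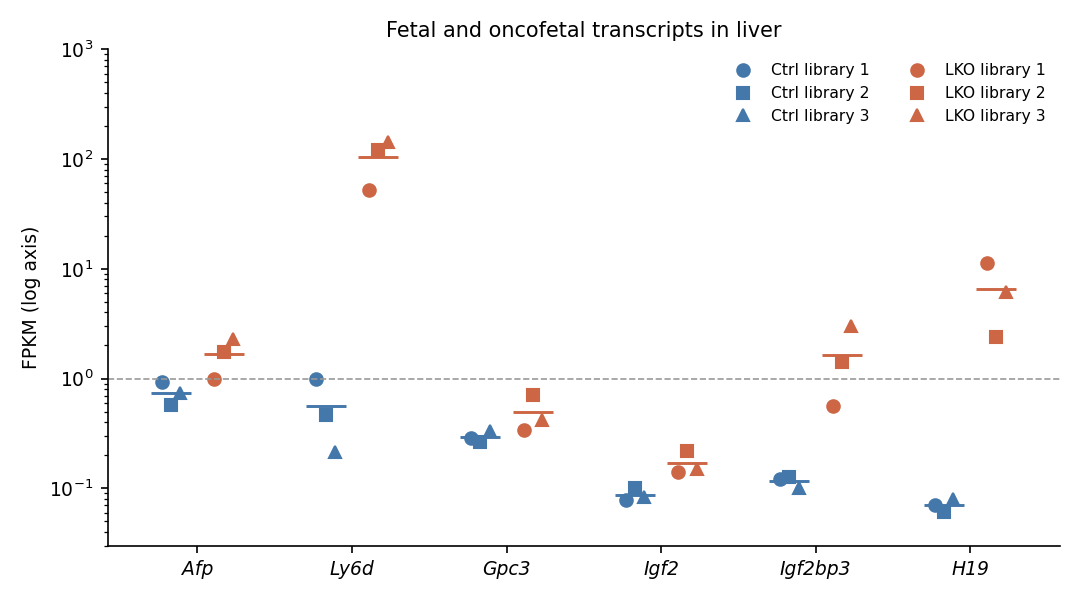
FPKM of the 6 transcripts in each liver library on a log axis. Blue symbols are Ctrl and orange symbols LKO libraries, the symbol shape gives the library number, short bars are group means, and the dashed line is 1 FPKM. All LKO values lie above the Ctrl values of the same gene, with a gap of 52.5-fold for Ly6d and of only 1.03-fold for Gpc3.

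The LKO livers did not rank alike for all 6. LKO library 1, in which *Gadd45gip1* was least reduced, had the lowest *Afp*, *Ly6d*, *Gpc3*, *Igf2* and *Igf2bp3* of the LKO group but the highest *H19*. LKO library 3 had the highest *Afp*, *Ly6d* and *Igf2bp3*, and LKO library 2 the highest *Gpc3* and *Igf2* and the lowest *H19*. The 5 cell division markers (*Mki67*, *Top2a*, *Ccnb1*, *Cdk1* and *Birc5*) were also highest in LKO library 1, with a summed level of 58.7 FPKM against 24.7 and 25.6 FPKM in libraries 2 and 3 and 1.21 to 2.37 FPKM in Ctrl. Their part in the *H19* values was not tested.

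Liver values as a whole were shifted, which bears on the small differences. Over the 10956 genes tested in liver the median log2 difference was 0.33, and after scaling each library by the median ratio to the others it was 0.02. After that scaling *Afp* (1.03, 0.66 and 0.84 in Ctrl, 0.99, 1.52 and 1.80 in LKO) and *Gpc3* overlapped between the groups, *Igf2* stayed apart by 1.01-fold, and *Igf2bp3*, *H19* and *Ly6d* by 3.85-, 22.4- and 47.6-fold. The ratios of means were then 1.71 for *Afp*, 1.29 for *Gpc3*, 1.51 for *Igf2*, 10.4 for *Igf2bp3*, 75.4 for *H19* and 142 for *Ly6d*. Against the median of all tested genes, *Afp*, *Igf2bp3*, *H19* and *Ly6d* lay above it on the log2(FPKM + 1) scale with and without scaling. *Gpc3* (0.20) and *Igf2* (0.11) lay below the median of 0.33 before scaling and above that of 0.02 after it (0.096 and 0.065), above it with a pseudocount of 0.1 (0.54 and 0.52 against 0.38), and below it in the deposited TPM (0.35 and 0.20 against 0.47), so their place beside the median depends on the scale.

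The livers held more RNA of several other cell types, given here as values beside the members. In bulk tissue more cells of a type and more RNA per cell cannot be told apart. A gene was called with a fold of at least 1.5 and a Benjamini-Hochberg adjusted p under 0.05 in limma over all tested genes, which 23.9% of genes passed upwards and 3.50% downwards (2622 and 384 genes). After median-ratio scaling the split was 1111 upwards and 771 downwards. A gene under 1 FPKM in every Ctrl liver could enter that test only by being higher in LKO livers, which held for 504 genes, 401 of them called higher. Counts of lists are therefore given from the fit without the low-value filter, over the 17883 genes above 0 in any liver, of which 13.9% were called higher and 1.95% lower and whose median log2 difference was 0.19. Of the markers written for each type, 4 of 6 cholangiocyte and progenitor genes, 5 of 6 stellate cell genes, 6 of 6 Kupffer cell and monocyte genes and 2 of 5 endothelial genes were called higher in it. Of 10 hepatocyte markers none was called higher and 1 lower (*Cyp2e1*), whereas the filtered fit also called *Ahsg* higher and *Serpina1a* lower, and the list summed to 64177 to 67756 FPKM in Ctrl and 52074 to 77794 FPKM in LKO livers. The summed cholangiocyte list was at 30.7 to 31.8 FPKM in Ctrl and at 41.6, 89.0 and 76.4 FPKM in LKO libraries 1, 2 and 3. Within the LKO group library 1 was lowest, as it was for the stellate cell list (160, 168 and 178 FPKM) and for every member but *H19*. The Kupffer cell and monocyte list summed to 84.5 to 87.3 FPKM in Ctrl and to 184, 206 and 289 FPKM in LKO livers 1, 2 and 3. *Afp*, *Ly6d* and *Igf2bp3* stood in that order. So did the endothelial list (80.1, 108 and 131 FPKM) and the median-ratio scaling factors of these libraries (0.995, 1.15 and 1.28). Within the Kupffer cell and monocyte list *Clec4f* and *Cd68* followed it, whereas *Adgre1*, *Cd5l*, *Ly6c2* and *Ccr2* were lowest in LKO library 2. Nothing is read from the shared order. Of the remaining lists, 0 of 5 erythroid, 0 of 4 muscle, 0 of 5 B cell, 0 of 4 neuron and 0 of 2 detected keratinocyte genes were called without the filter, and 1 of 4 adipocyte genes (*Fabp4*) was higher. The part of these cells in the members' values was not tested.

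Markers of the cells in which *Ly6d* is best known are given beside it. Of the 4 keratins of stratified epithelium written as keratinocyte markers, *Krt14* and *Krt1* were listed at 0 in all 6 livers and *Krt5* was above 0 in 1 LKO library (0.0393 FPKM), whereas *Krt10* was at 0.472 to 0.731 FPKM in Ctrl and 0.389 to 0.755 FPKM in LKO livers. The 5 B cell markers summed to 2.12, 1.65 and 0.965 FPKM in Ctrl and to 2.88, 1.93 and 2.59 FPKM in LKO livers, above *Ly6d* in each Ctrl and below it in each LKO library. The part of B cells and keratinocytes in the *Ly6d* values was not tested. Keratins of simple epithelium, which hepatocytes also express, were high: *Krt8* at 108 to 152 FPKM and *Krt18* at 82.6 to 131 FPKM in Ctrl, and 383 to 463 and 284 to 323 FPKM in LKO livers, both called higher.

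**Figure D2:**
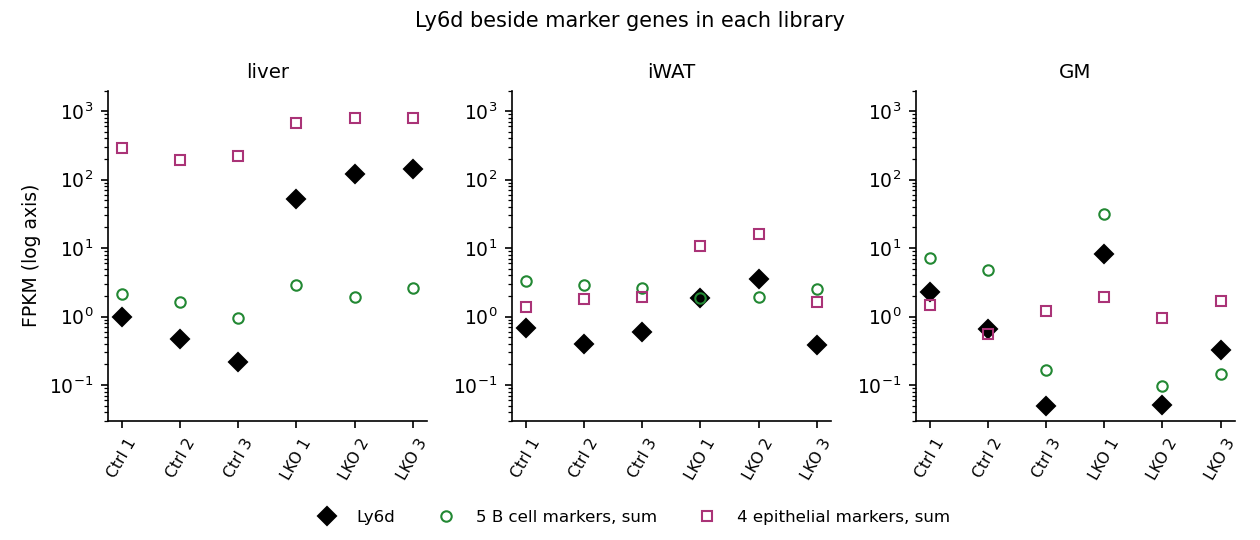
Ly6d (black) beside the summed FPKM of 5 B cell markers (green circles) and 4 epithelial markers (purple squares) in each library of liver, iWAT and GM, on a log axis. In LKO liver Ly6d stands above the B cell markers, in iWAT it is high in the 2 LKO libraries with high epithelial markers, and in GM it is high in the libraries with high B cell markers.

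In the other tissues the markers of the labelled tissue were abundant, at 19613 to 25364 FPKM for the adipocyte list in iWAT, 54156 to 62345 FPKM for the muscle list in GM and 885 to 1095 FPKM for the neuron list in hypothalamus. The members were not chosen on these tissues, so limma tests apply to those that passed the filter. None of 12288 genes in iWAT and none of 10877 in GM was called (0.00% each; 399 and 98 genes at an unadjusted p under 0.05), and 3 of 13828 in hypothalamus (0.0217%; 46 unadjusted). No member was called in any of the 3 tissues. *Gadd45gip1* was at 11.6 to 15.99 FPKM in Ctrl iWAT and 10.4 to 11.99 FPKM in LKO iWAT, and its ranges overlapped between the groups in GM and hypothalamus too.

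*Igf2* in iWAT was at 1.38, 1.63 and 1.76 FPKM in Ctrl and 2.24, 2.64 and 3.33 FPKM in LKO. The groups did not overlap, as was the case upwards for 9.76% of tested genes. The log2 difference was 0.52 ± 0.13 (SE) with a limma p of 0.00595 and a Benjamini-Hochberg adjusted p of 0.158. In GM *Igf2* was at 5.80, 6.03 and 4.66 FPKM in Ctrl and 9.08, 6.45 and 9.90 FPKM in LKO, with a log2 difference of 0.53 ± 0.16 (SE) and a limma adjusted p of 0.577. There too every LKO library was above every Ctrl library, against 4.38% of genes in GM, and the difference did not pass the correction over all genes.

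*Igf2* in hypothalamus was high and variable, at 66.1, 93.5 and 162 FPKM in Ctrl and 104, 77.5 and 70.1 FPKM in LKO. The log2 difference was -0.27 ± 0.31 (SE, limma adjusted p = 0.999) and turned to 0.07 without Ctrl library 3. Leptomeninges and choroid plexus are known sites of *Igf2* expression in the adult brain. Of 4 leptomeningeal markers in that Ctrl library, *Ptgds* was at 6620 FPKM against 2675 to 3309 FPKM in the other 5, *Slc6a13* at 34.0 against 16.6 to 23.9 FPKM and *Col1a1* at 11.4 against 6.68 to 9.80 FPKM, while *Dcn* (20.6 FPKM) lay inside the range of the others (16.2 to 24.8 FPKM). The 5 choroid plexus markers did not set it apart, with a sum of 10.5 FPKM against 5.76 to 11.04 FPKM in the others. The erythroid list, at 952 against 228 to 460 FPKM, and the hepatocyte list, at 35.5 against 6.64 to 10.9 FPKM, were highest in that library too. The leptomeningeal and choroid plexus markers were chosen after the *Igf2* values were seen, and their part in the spread of *Igf2* was not tested.

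*H19* showed no called difference outside liver. In GM it was one of the abundant transcripts, at 452, 557 and 404 FPKM in Ctrl and 751, 515 and 857 FPKM in LKO. LKO library 2 lay within the Ctrl range, and the log2 difference of 0.57 ± 0.20 (SE) had a limma p of 0.0235 and an adjusted p of 0.654. In iWAT *H19* was at 2.58 to 6.92 FPKM in Ctrl and 3.37 to 6.99 FPKM in LKO (log2 difference 0.25 ± 0.34 SE, limma adjusted p = 0.765), and without Ctrl library 3 the difference was -0.05. In hypothalamus both groups were between 0.893 and 1.73 FPKM.

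*Gpc3* was not called in the other 3 tissues either. It ranged from 34.4 to 44.3 FPKM in Ctrl iWAT and 30.5 to 41.6 FPKM in LKO iWAT, and from 16.3 to 19.8 and 16.8 to 17.7 FPKM in the Ctrl and LKO hypothalamus. In GM it was at 3.66, 3.33 and 2.68 FPKM in Ctrl and 4.40, 3.68 and 3.96 FPKM in LKO, apart by 1.01-fold, with a log2 difference of 0.25 ± 0.11 (SE, limma adjusted p = 0.751).

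*Ly6d* was scattered in iWAT and GM and was not tested there, because only 2 libraries of each tissue reached 1 FPKM. In iWAT it was at 0.683, 0.392 and 0.5995 FPKM in Ctrl and 1.87, 3.53 and 0.381 FPKM in LKO. The LKO libraries 1 and 2 that were high in *Ly6d* were also high in 4 epithelial genes (*Epcam*, *Krt8*, *Krt18* and *Krt19*), with sums of 10.6 and 15.95 FPKM against 1.37 to 1.90 FPKM in the other 4 libraries. In GM *Ly6d* was at 2.27, 0.668 and 0.0493 FPKM in Ctrl and 8.06, 0.0508 and 0.329 FPKM in LKO, and the 5 B cell markers summed to 7.25, 4.804 and 0.168 FPKM and to 31.3, 0.0972 and 0.144 FPKM in the same libraries. The 3 GM libraries with the most B cell marker RNA were thus the 3 with the most *Ly6d*. The epithelial list was chosen after the *Ly6d* values were seen.

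*Afp* and *Igf2bp3* were near absent outside liver. *Afp* was at 0 in 13 of these 18 libraries and never above 0.0464 FPKM, and *Igf2bp3* was between 0.0995 and 0.442 FPKM, above the highest Ctrl liver in 16 of 18. Each LKO liver exceeded all 18 in both transcripts.

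**Figure D3:**
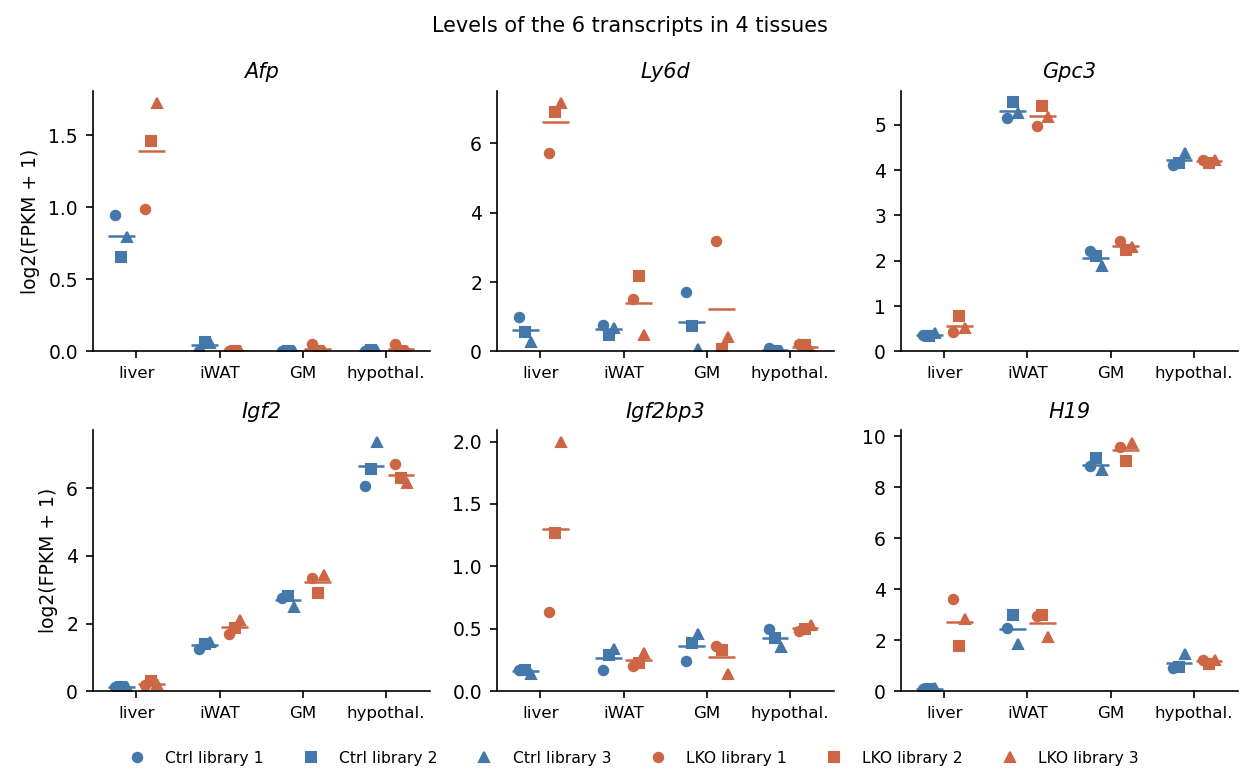
Levels of each transcript, as log2(FPKM + 1), in the libraries of 4 tissues. Blue symbols are Ctrl, orange symbols LKO, and bars are means. Afp, Ly6d and Igf2bp3 are highest in LKO liver, H19 in GM, Igf2 in hypothalamus and Gpc3 in iWAT.

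The tissues ranked differently for *H19*, *Igf2* and *Gpc3*. In Ctrl mice *H19* averaged 471 ± 78.4 FPKM in GM, 4.70 ± 2.17 in iWAT and 1.18 ± 0.48 in hypothalamus (SD, n = 3), and all 3 pairs differed (limma, closest pair iWAT against hypothalamus, log2 difference 1.33 ± 0.27 SE, adjusted p = 0.00116). *Igf2* averaged 107 ± 49.5 FPKM in hypothalamus, 5.49 ± 0.73 in GM and 1.59 ± 0.19 in iWAT, where the closest pair, iWAT against GM, differed by -1.32 ± 0.27 (SE, limma adjusted p = 0.00119). *Gpc3* averaged 38.7 ± 5.03 FPKM in iWAT, 17.7 ± 1.92 in hypothalamus and 3.22 ± 0.50 in GM, and iWAT against hypothalamus differed by 1.09 ± 0.12 (SE, limma adjusted p = 2.10e-05). Such differences are common between these tissues, being called for 59.1%, 63.5% and 73.4% of 14815 genes (iWAT against GM, iWAT against hypothalamus and GM against hypothalamus). Ctrl liver was lowest for all 3 genes, and LKO liver brought *H19* alone up to the level of another tissue: its 2.37 to 11.2 FPKM spanned the 2.58 to 6.92 FPKM of Ctrl iWAT.

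Over the 24 libraries, the genes whose log2(FPKM + 1) was most like that of each member followed the tissue in which it was highest. They were *Mrpl42*, *AI314180* and *Qser1* for *H19* (Pearson r = 0.98 each), *Nkd2*, *Cep19* and *Gaa* for *Igf2* (r = 0.99 each), and *Chst12*, *Cercam* and *Akap12* for *Gpc3* (r = 0.99 each), among 15848 genes compared. For *Ly6d* they were *Sectm1a*, *Cyp2b9* and *Spink1* (r = 0.93, 0.92 and 0.92), all with their highest levels in LKO liver. These points share tissue and genotype, so r describes group means. Between the neighbours *H19* and *Igf2* r was -0.03. *Afp* and *Igf2bp3* reached 1 FPKM in too few libraries to be compared.

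Lists of genes related to the members were read in liver by their counts and medians beside those of all genes, without the low-value filter. Of 17 other oncofetal and hepatoblast transcripts 14 were above 0 in any liver, of which 5 were called higher and none lower (13.9% and 1.95% of all genes), with a median log2 difference of 0.58 against 0.19. The called genes were *Spink1*, *Golm1*, *Tspan8*, *Cd24a* and *Epcam*, and with the filter they were the same 5 of 7 tested. After median-ratio scaling in the filtered fit 4 were called, *Epcam* (0.47) being under the fold limit. *Spink1*, *Tspan8* and *Epcam* were under 1 FPKM in every Ctrl liver and passed that filter through the LKO livers alone, so they dropped out of the filtered test when any 1 LKO library was left out. The filtered count was then 2 without LKO library 2 or 3 and 4 without LKO library 1, where *Hmga1* and *Scd2* were called beside *Golm1* and *Cd24a*. *Spink1*, a trypsin inhibitor gene, was at 0 to 0.355 FPKM in Ctrl and 5.29 to 9.08 FPKM in LKO (log2 difference 2.73 ± 0.20 SE, limma adjusted p = 0.000395, and 0.00264 without the filter). *Golm1*, which encodes a Golgi membrane protein used as a serum marker of liver tumours, went from 0.818 to 1.03 FPKM to 4.91 to 5.24 FPKM (1.67 ± 0.10, limma adjusted p = 0.000257), and the tetraspanin gene *Tspan8* differed by 1.41 ± 0.15 (limma adjusted p = 0.00149, and 0.00472 without the filter). *Scd2*, a desaturase gene, was not called (1.41 ± 0.55, limma adjusted p = 0.0699), with LKO library 1 at 20.7 FPKM and the others at 3.75 and 3.89 FPKM. Without that library its difference was 0.68 and was called, and it was also called with deposited TPM (1.65, limma adjusted p = 0.0403).

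The oncofetal regulators of this list ranged from 0 to a few FPKM. *Lin28a*, *Lin28b* and *Trim71*, which hold stem cells and fetal tissue in an immature state, were listed at 0 in all 6 livers, and all 3 embryonic globins were too. *Hmga1*, which encodes a chromatin protein, was at 0.913 to 1.55 FPKM in Ctrl and 1.05 to 2.99 FPKM in LKO livers and was not called (0.56 ± 0.27 SE, limma adjusted p = 0.12). Its relative *Hmga2* was at 0.0274 to 0.0381 FPKM in Ctrl and 0.0569, 0.1 and 0.224 FPKM in LKO livers 1, 2 and 3. Every LKO library was above every Ctrl library, as for 44.0% of the genes above 0 in any liver. *Hmga2* was not called in the fit without the filter (limma adjusted p = 0.127). Of the 3 genes of the Igf2bp family, *Igf2bp1* did not exceed 0.00435 FPKM, while *Igf2bp2* was at 0.194 to 0.253 FPKM in Ctrl and 0.294, 0.974 and 1.58 FPKM in LKO livers 1, 2 and 3. That order was also seen for *Igf2bp3* and for the median-ratio scaling factors. *Igf2bp2* was not called without the filter either (limma adjusted p = 0.0968). Apart from *Hmga1* these genes were under the filter, and all are named here after their values were seen.

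In the IGF axis, 4 of 16 genes were called higher and 1 lower without the filter (13.9% and 1.95% of all genes). The median log2 difference was 0.10, below the 0.19 over all genes. Over the 12 that passed the filter, each with a Ctrl library at 1 FPKM or more, the counts were the same and the median of 0.16 became -0.13 after median-ratio scaling. *Igfbp1*, an IGF-binding protein gene of hepatocytes, was at 82.3 to 167 FPKM in Ctrl and 295 to 826 FPKM in LKO (2.18 ± 0.40 SE, limma adjusted p = 0.00735), and *Igfbp3* (1.19 ± 0.18, adjusted p = 0.00379) and *Igfbp7* (0.99 ± 0.13, adjusted p = 0.0024) were higher too. *Igfals*, which encodes the stabilizing subunit of circulating IGF complexes, was lower (-1.003 ± 0.19, adjusted p = 0.00763). *Igf2r*, the receptor that clears IGF2, rose from 6.08 to 6.72 FPKM in Ctrl to 8.77, 14.1 and 18.3 FPKM in LKO livers (0.93 ± 0.23, limma adjusted p = 0.0203), a call that was lost when any 1 Ctrl library or LKO library 2 was left out. *Igf1*, the adult growth factor of this axis, overlapped between the groups (-0.13 ± 0.19, adjusted p = 0.586).

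Of 18 imprinted transcripts 4 were called higher and 1 lower without the filter (13.9% and 1.95% of all genes), with a median of 0.396 against 0.19 over all genes. The filtered test, in which 8 entered and *Grb10* and *Mest* did so through the LKO livers alone, also gave 5 calls, which became 3 without Ctrl library 1 or 3 and 2 without Ctrl library 2 or LKO library 2, and 8 with deposited TPM. *Dcn*, a matrix proteoglycan gene of stellate cells and fibroblasts, was higher (1.305 ± 0.11 SE, limma adjusted p = 0.000638), as was *Grb10*, an adaptor of the insulin receptor (0.95 ± 0.25, adjusted p = 0.0222, and 0.0423 without the filter), whose call was lost without any 1 Ctrl library. *Meg3*, like *H19* a maternally expressed noncoding RNA, went the other way, from 2.31 to 4.61 FPKM in Ctrl to 0.727 to 1.55 FPKM in LKO (-1.15 ± 0.24, limma adjusted p = 0.0108).

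Of 15 transcription factors known to act on the *Afp*, *H19* or *Gpc3* genes, 1 was called higher and 1 lower without the filter (13.9% and 1.95% of all genes), with a median of 0.074 against 0.19 over all genes. The factors known to keep *Afp* and *H19* silent in the adult liver, *Zhx2* (0.27 ± 0.23, limma adjusted p = 0.346) and *Zbtb20* (0.27 ± 0.10, adjusted p = 0.0708), were not called. *Cebpa*, a factor of mature hepatocytes, was lower (113 to 137 FPKM in Ctrl, 53.02 to 78.9 FPKM in LKO, -0.89 ± 0.16, limma adjusted p = 0.00737). *Trp53* was higher (0.80 ± 0.22, adjusted p = 0.0272), but not after median-ratio scaling (0.45, adjusted p = 0.0655) or without any 1 of the 3 Ctrl libraries or LKO library 2 or 3. *Cebpb* (1.11 ± 0.67, adjusted p = 0.199) and *Foxa1* (-0.55 ± 0.19, adjusted p = 0.0528) were not called, the latter being called lower after median-ratio scaling and with a pseudocount of 0.1.

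In the families of the members, the fit without the filter called 0 of 3 other albumin family genes, 2 of 4 detected glypicans (*Gpc1* and *Gpc6*) and 3 of 10 detected Ly6 family genes (*Ly6e*, *Ly6c2* and *Lynx1*), all higher. Of all genes 13.9% were called higher in that fit, and nothing particular to these small families is read from the counts. *Alb*, *Afm* and *Gc* of the albumin family were not called (log2 differences of 0.05, 0.22 and 0.39, of which the first and second turned negative after scaling). *Gpc1* was higher (1.16 ± 0.17 SE, limma adjusted p = 0.00319), as was *Gpc6* in the unfiltered fit (0.61 ± 0.10, limma adjusted p = 0.0119), while *Gpc4*, the neighbour of *Gpc3*, was not called (-0.13 ± 0.13, adjusted p = 0.409). *Ly6e* was higher (1.24 ± 0.15, limma adjusted p = 0.00192), and so were, in the unfiltered fit, *Ly6c2* (0.95 ± 0.21, limma adjusted p = 0.0225), a marker of monocytes, and *Lynx1* (0.67 ± 0.16, limma adjusted p = 0.0272), whereas *Ly6a* (0.60 ± 0.30, adjusted p = 0.132) and *Gpihbp1* (0.48 ± 0.15, adjusted p = 0.0396, under the fold limit) were not called. *Ly6a* and *Gpihbp1* were both called higher without LKO library 1, and *Gpihbp1* also with deposited TPM.

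**Figure D4:**
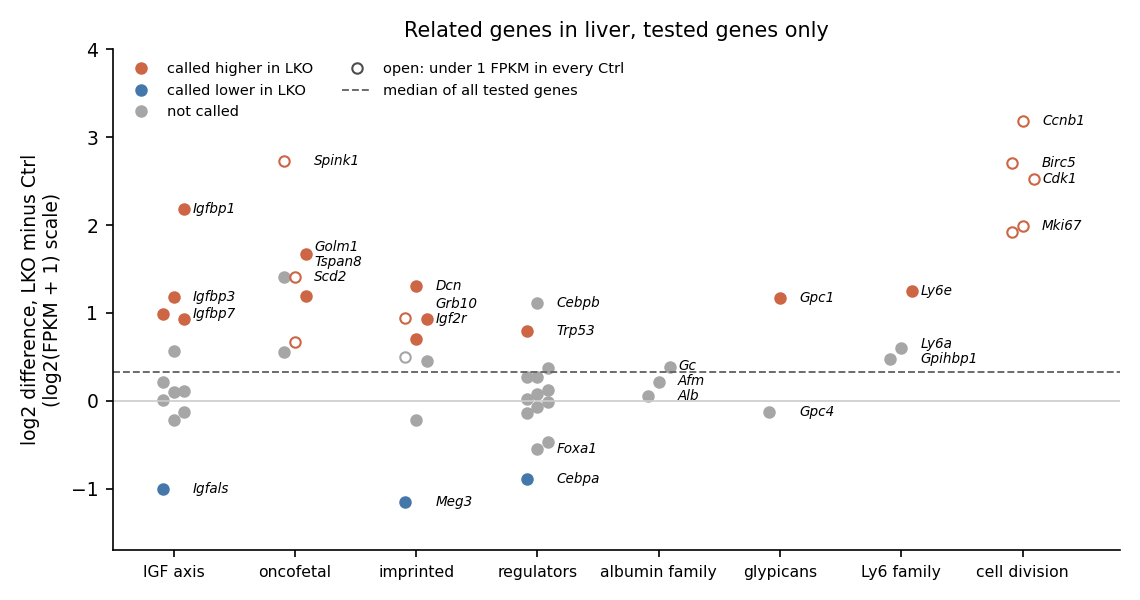
Log2 differences (LKO minus Ctrl, on the log2(FPKM + 1) scale) of the tested genes of 7 related lists and the cell division markers in liver. Orange points were called higher, blue points lower and grey points not called, and the dashed line is the median of all tested genes, 0.33. Open symbols are genes under 1 FPKM in every Ctrl liver, which entered the test through their LKO values alone, among them all 5 cell division markers. Most transcription factors lie around 0.

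Around the 6 loci, 66 genes lay within 250 kb, of which 41 were above 0 in any liver. Without the filter 7 of these were called higher and none lower, a share of 17.1% against 13.9% of all genes, with a median log2 difference of 0.21 against 0.19, and nothing particular to the neighbours is read from it. The 7 were *Gpnmb*, *Ctsd*, *Lsp1*, *Ly6e*, *Tmem176a*, *Tmem176b* and *Lynx1*. All but *Lynx1*, which was under the filter, were also called among the 19 tested with the filter, where 23.9% of all genes were called higher and which *Gpnmb* passed through the LKO livers alone. By locus, without the filter, the calls were 3 of 8 genes around *Igf2bp3*, 2 of 10 around *H19*, 1 of 8 around *Igf2*, 2 of 13 around *Ly6d*, 0 of 6 around *Afp* and 0 of 4 around *Gpc3*, where *H19* and *Igf2* share neighbours. The nearest called gene was *Lynx1*, a Ly6 family gene 9.08 kb from *Ly6d*, at 0.201 to 0.341 FPKM in Ctrl and 0.653, 1.02 and 1.54 FPKM in LKO livers 1, 2 and 3. *Gpnmb*, a transmembrane glycoprotein gene of macrophages, lies 27.0 kb past the end of *Igf2bp3*. It was at 0.0519, 0 and 0 FPKM in Ctrl and 8.22, 26.3 and 43.9 FPKM in LKO livers 1, 2 and 3 (log2 difference 4.46, limma adjusted p = 0.00584 without the filter). *Igf2bp3* stood in the same library order, and so did the median-ratio scaling factors. In iWAT *Gpnmb* was at 6.82 to 43.1 FPKM and *Igf2bp3* was under 0.27 FPKM. A link between these genes was not tested.

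**Figure D5:**
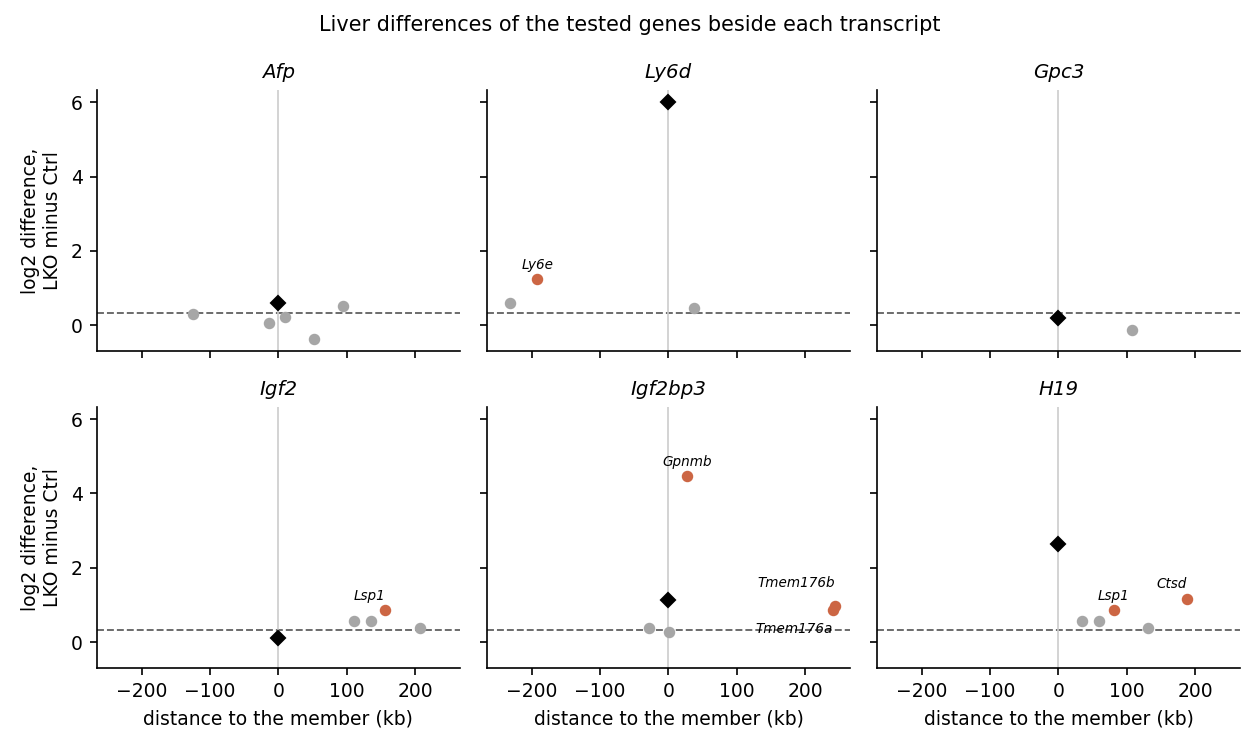
Log2 difference in liver of the tested genes within 250 kb of each transcript, against their distance in kb along the strand of that transcript. Black diamonds are the transcripts themselves, orange points were called higher, grey points were not called, and the dashed line is the median of all tested genes, 0.33. Gpnmb beside Igf2bp3, at 4.46, is the neighbour with the largest difference.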

How the data were processed

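Bulk RNA-seq was made with an unstranded TruSeq RNA kit (paired reads of 100 nt) from 4 tissues. Per the submitters' notes FastQC 0.11.5, Trimmomatic 0.32, HISAT2 2.0.5, Bowtie2 2.2.6, STAR 2.5.2b and StringTie 1.3.3b were used on mm10, with roles not given in the sources used here. The authors deposited FPKM in a joined table, and FPKM, TPM and mean coverage (unscaled signal) per library. The deposited values are not counts, so counting error is unknown. The ratio of FPKM to coverage gave 4.45 to 8.09 gigabases per library (liver Ctrl 5.42 to 8.09, LKO 4.70 to 5.54). No libraries were identical, and correlations across genes were at least 0.98 within groups.

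Each tissue was fitted with limma 3.58.1 (lmFit, eBayes with trend) in R 4.3.3 on log2(FPKM + 1), for genes that reached 1 FPKM in 3 or more of its 6 libraries, with p-values adjusted by Benjamini-Hochberg over all tested genes. A call needed a fold of at least 1.5 and an adjusted p under 0.05. Ctrl levels were compared in 1 fit of 9 libraries (iWAT, GM and hypothalamus). An exact permutation test of 3 against 3 cannot go below p = 0.1 and was not used. The fit was tested on simulated data. The members and lists (8 of related genes, 12 of markers) were chosen with earlier results of these data known, and 3 marker lists were added after values were seen. Named are all members, the 3 genes most like each, up to 4 tested genes per list with the largest difference, and called genes within 250 kb; others were named after their values were seen. Promoters, microRNAs and positions came from RefSeq and GENCODE M21. Alternatives were a pseudocount of 0.1, no low-value filter, median-ratio scaling, deposited TPM, a replicate block, a fold of 2 and leaving out each library. Reading list and neighbour counts from the unfiltered fit was chosen after seeing the data.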

Additional observations from a re-analysis of the deposited data

How the results depend on the processing

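The liver differences of the 6 members kept their direction under every alternative. With a pseudocount of 0.1 they were 1.02 (*Afp*), 5.03 (*H19*), 0.52 (*Igf2*), 0.54 (*Gpc3*), 7.37 (*Ly6d*) and 2.75 (*Igf2bp3*) on the log2 scale, since a smaller pseudocount shrinks low values less. With deposited TPM they were 3.40 (*H19*), 0.20 (*Igf2*), 0.35 (*Gpc3*), 6.63 (*Ly6d*) and 1.65 (*Igf2bp3*), and with median-ratio scaling *Igf2* was 0.065. Leaving out 1 library gave 0.43 to 0.79 (*Afp*), 2.19 to 3.12 (*H19*), 0.075 to 0.12 (*Igf2*), 0.095 to 0.27 (*Gpc3*), 5.71 to 6.43 (*Ly6d*) and 0.80 to 1.48 (*Igf2bp3*). In the other tissues *H19*, *Igf2* and *Gpc3* were called under none of the alternatives, and their 9 comparisons between Ctrl tissues were called under all of them. Leaving out 1 library gave -0.048 to 0.53 for *H19* in iWAT, -0.021 to 0.24 for *H19*, -0.57 to 0.074 for *Igf2* and -0.071 to 0.065 for *Gpc3* in hypothalamus, and with TPM *Gpc3* there was 0.0038. The cause was not tested.

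The 3006 genes called in liver became 1882 with median-ratio scaling, 4822 with TPM, 1067 with a fold of 2 and 1343 to 3907 without 1 library. The 18 called among the related lists became 27 with TPM, 21 with no filter, 11 with a fold of 2 and 11 (without LKO library 2) to 19 without 1 library. After median-ratio scaling *Alb* was -0.31 and *Afm* -0.15, and *Alb* was -0.11 to 0.23 without 1 library. Deviations of Ctrl and LKO libraries with the same number correlated at -0.13 to 0.35, mostly above 0, but in no tissue did every pair exceed 0.1, so the numbers were not taken to pair the samples. A replicate block gave 3031 calls in liver and turned, among the genes named from the lists, only the call of *Scd2* (1.41, limma adjusted p = 0.037).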
